A study of Mus musculus with 12 samples.

Results

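The genes described here break down stored triglyceride in fat cells or coat the lipid droplets that hold it. They are Pnpla2, Lipe and Mgll (the lipases), Abhd5 and G0s2 (the partners of the first lipase) and Plin1, Plin2, Plin4, Cidec and Fitm2 (proteins of the droplet). They were found by symbol in the deposited table of reads per gene, where each symbol had a single gene identifier, which gave 10 of the 54134 genes listed. All 10 were among the 15585 genes with enough reads to be tested.

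RNA was sequenced from the inguinal white adipose tissue (iWAT, a subcutaneous fat depot) of 12 male C57BL/6J mice fed chow, 6 AAV-GFP treated and 6 AAV-Notum treated. At 8 weeks of age each mouse received, by the tail vein, an adeno-associated virus of serotype 8 that carried GFP or mouse Notum behind a human thyroxine binding globulin promoter, which is active in the liver, and the fat was taken 4 weeks later after a 4 h fast. Thus the promoter directs the transgene to the liver, and the controls also carried a virus. No uninjected mice were used here. NOTUM is a secreted enzyme that inactivates Wnt proteins by removing their lipid, and the comparison asks how fat tissue differs when the liver makes more of it.

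In a fat cell, triglyceride is cut in succession by ATGL (Pnpla2), hormone-sensitive lipase (Lipe) and monoglyceride lipase (Mgll), which frees fatty acids and glycerol for use elsewhere during fasting. ATGL is switched on by ABHD5 and held back by G0S2, and perilipin 1 (Plin1) keeps ABHD5 at the droplet surface until adrenergic signals, through cAMP and protein kinase A, release it. Insulin opposes this by lowering cAMP. CIDEC joins small droplets into large ones, and FITM2 helps new droplets form at the endoplasmic reticulum.

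Total reads on genes ran from 15266635 to 21618860 in AAV-GFP mice and from 14711113 to 17838229 in AAV-Notum mice, and the RNA integrity number from 5.7 to 7.6 and from 6.9 to 7.4. Neither mean differed between the groups at a p under 0.05 (exact permutation tests of the difference of means, two-sided, p = 0.279 and 0.357). RNA of mouse AAV-GFP-2012 was isolated 22 days after collection and that of the other 11 mice after 2 days. Transcripts of Notum itself in iWAT ranged from 0.06 to 0.99 CPM in AAV-GFP mice and from 0.46 to 29.3 CPM in AAV-Notum mice (CPM is reads scaled to a common library size, after TMM). Those ranges overlapped, and each of the 6 AAV-Notum mice exceeded the mean of the controls (exact permutation p = 0.0411). Fat cell markers were abundant in every mouse. The summed level of 12 adipocyte markers, such as Adipoq and Cd36, was 40929 to 73471 CPM in AAV-GFP mice and 38055 to 88948 CPM in AAV-Notum mice. The summed level of 15 lymphoid markers, such as Cd3e, was 23.2 to 2261 CPM and 677 to 2894 CPM. Each of these markers had reads when the 12 mice were summed. As mean log2 CPM over those 15 genes, the lymphoid score was 0.37 in AAV-GFP-2011, -0.32 in AAV-GFP-2014 and 3.58 in AAV-GFP-2012, against 5.18 to 7.22 in the other 9 mice. Results are therefore also given without AAV-GFP-2011 and AAV-GFP-2014. In bulk tissue, fewer cells of a type and less RNA per cell cannot be told apart.

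The 10 genes were highly expressed in iWAT and together held 1.498% of all reads, between 1.05% and 1.99% in single mice. Compared per kilobase of exon (RPKM), which allows levels of different genes to be set side by side, Cidec was highest in AAV-GFP mice with 1559 ± 338 RPKM (SD, n = 6), followed by Pnpla2 with 1080 ± 314 RPKM. Next came Plin4 with 608 ± 157, Plin1 with 511 ± 159, Lipe with 414 ± 109, Mgll with 314 ± 110 and G0s2 with 243 ± 81.1 RPKM (SD, n = 6). Lowest were Plin2 with 84.9 ± 11.4, Fitm2 with 81.2 ± 18.3 and Abhd5 with 29.9 ± 9.23 RPKM (SD, n = 6). The ATGL activator thus had a far lower transcript level than the lipase it activates: within a mouse, Pnpla2 was a mean of 36.1 times Abhd5 per kilobase in the AAV-GFP group. These levels are from the raw read counts. The deposited log2 values differ from those counts most in Lipe and Abhd5, where they hold fewer reads. Neither the order of the genes nor this ratio per kilobase was computed from the log2 values. Of the 9 neighbouring pairs in the order from the raw counts, 7 held in all 12 mice. The exceptions were Plin4 above Plin1, which held in 5 of 6 AAV-GFP and 2 of 6 AAV-Notum mice, and Plin2 above Fitm2, which held in 3 of 6 and 6 of 6. Ranges over AAV-GFP mice were separate only between G0s2 and Plin2 and between Fitm2 and Abhd5 and those of the other 7 neighbouring pairs overlapped, although 5 of these pairs kept their order within each of the 12 mice.

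Promoter windows of 250 bases before to 50 bases after each start site were available from RefSeq (GRCm38.p6) for all 10 genes, as 13 windows. They were searched on both strands for the letters of binding sites of regulators of fat cells. The E-box CAGGTG (or CACCTG), which Snail factors bind, was in windows of 3 genes, Pnpla2, Lipe and G0s2, and in 20.2% of the 32851 windows of all genes. The nuclear receptor site AGGTCA was in windows of 2 genes, Abhd5 and Plin2, and in 16.3% of all windows. The TCF and LEF site CTTTGAT, the site of the factors that act with β-catenin, was in 0 of the 13 windows and in 3.73% of all. A match of letters is a description of the sequence and no evidence of binding. The windows of ATGL and its inhibitor are shown because both hold the E-box, and that of Plin4 because it had the largest fitted difference below. Capitals mark the E-box, whose first base is at position -123 from the start in Pnpla2 (chr7:141454938-141455237, plus strand) and at -243 in G0s2 (chr1:193273139-193273438, minus strand), and the Plin4 window (chr17:56109733-56110032, minus strand) held none of the searched letters.
Pnpla2: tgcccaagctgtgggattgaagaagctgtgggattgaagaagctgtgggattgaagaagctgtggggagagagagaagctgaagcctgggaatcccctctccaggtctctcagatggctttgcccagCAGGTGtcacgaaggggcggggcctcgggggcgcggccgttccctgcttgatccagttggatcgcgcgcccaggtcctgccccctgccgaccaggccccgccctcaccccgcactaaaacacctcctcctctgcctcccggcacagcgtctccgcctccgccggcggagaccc
G0s2: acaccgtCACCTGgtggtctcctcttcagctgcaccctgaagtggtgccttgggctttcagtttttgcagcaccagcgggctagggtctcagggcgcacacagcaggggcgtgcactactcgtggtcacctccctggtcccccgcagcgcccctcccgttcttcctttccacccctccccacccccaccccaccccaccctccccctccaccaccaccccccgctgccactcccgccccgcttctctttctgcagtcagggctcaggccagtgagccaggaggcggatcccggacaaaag
Plin4: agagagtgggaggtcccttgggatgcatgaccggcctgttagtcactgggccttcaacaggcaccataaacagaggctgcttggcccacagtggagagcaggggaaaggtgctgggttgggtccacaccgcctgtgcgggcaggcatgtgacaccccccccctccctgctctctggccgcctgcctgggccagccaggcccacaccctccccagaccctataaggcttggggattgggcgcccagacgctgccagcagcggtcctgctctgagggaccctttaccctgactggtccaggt

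All 10 genes had a lower fitted level in AAV-Notum than in AAV-GFP mice, a direction that 48.8% of all tested genes had. The fitted change ran from -5.26% for Abhd5 to -36.4% for Plin4, with a median log2 fold change of -0.32, against 0.01 over all genes tested. However, 0 of the 10 passed an adjusted p of 0.05 (edgeR's quasi-likelihood test with Benjamini-Hochberg adjustment over all 15585 genes), where 0.0513% of all genes did. At an unadjusted p under 0.05, 1 of 10 genes, Plin4, was lower and 0 were higher. Over all genes tested, 9.54% were lower and 4.64% higher at that p, so this count of members is near the background. The count of 1 became 4 without AAV-GFP-2022, where 13.6% of all genes were lower at that p, and 4 without AAV-Notum-2042, where 13.4% were. It became 2 without AAV-Notum-2033 (8.23% of all genes) and 0 without any one of AAV-GFP-2011, AAV-GFP-2012, AAV-GFP-2014, AAV-Notum-2031, AAV-Notum-2032 and AAV-Notum-2034 (6.67% to 7.11% of all genes). It stayed at 1 without AAV-GFP-2013 (11.4% of all genes), without AAV-GFP-2021 (9.18%) and without AAV-Notum-2041 (8.58%). With DESeq2 the count was 2 of 10, Plin4 and G0s2, where 5.87% of 31900 genes were lower. After adjustment 0 of the 10 passed, where 2.66% of 16401 genes did. DESeq2 gave a p to more genes than the 15585 of edgeR, so its shares cannot be set beside those of edgeR. In none of the 10 were the groups separate, while 0.693% of all genes were lower and 0.398% higher without overlap.

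**Figure D1:**
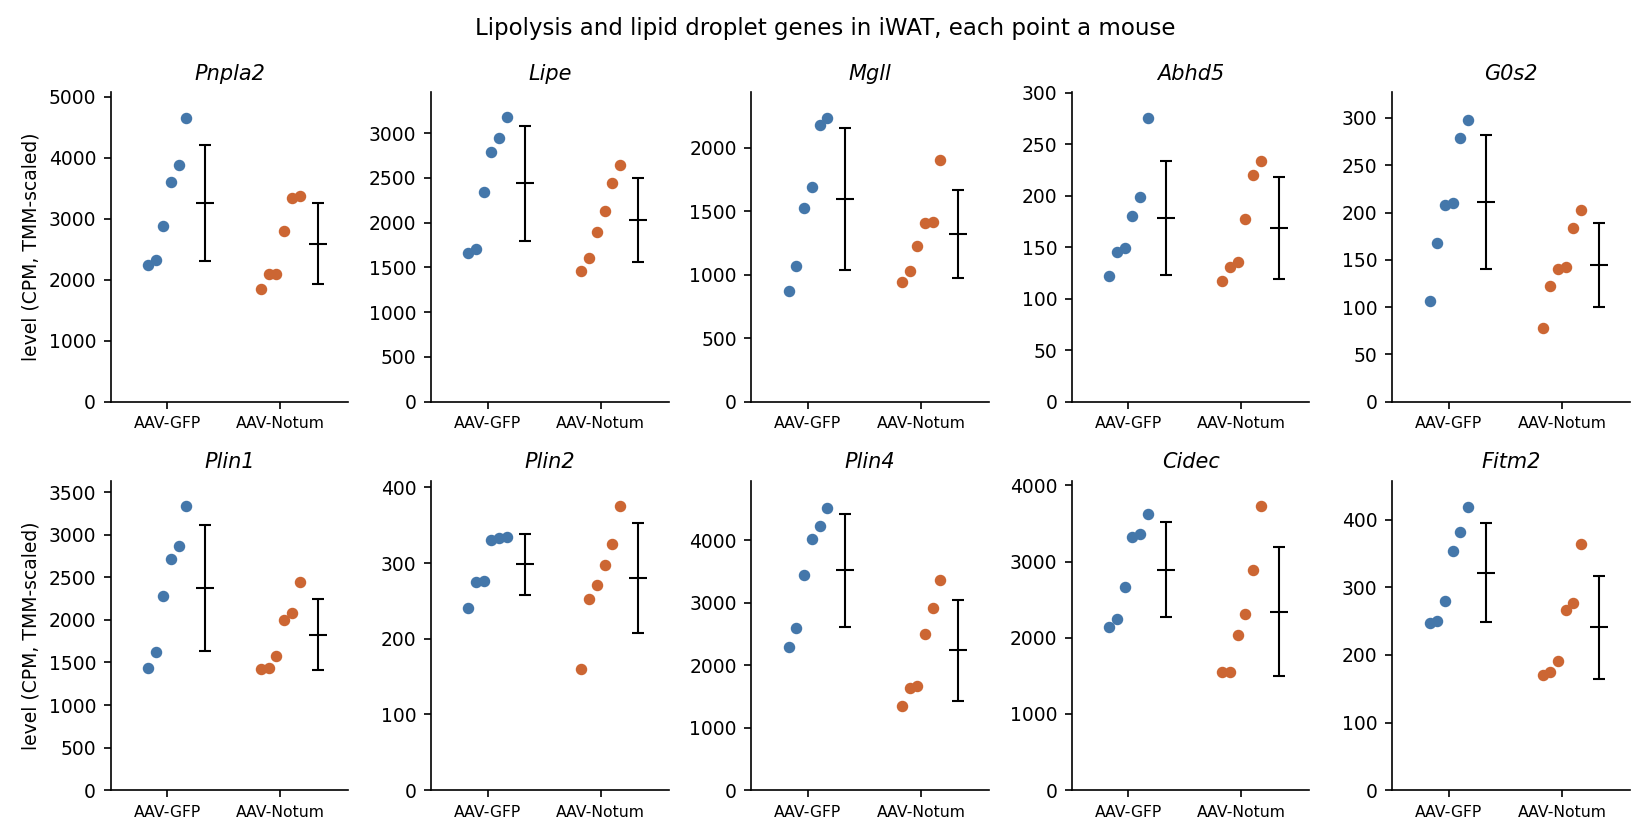
Level of each gene in CPM (linear axis from 0), each point a mouse, blue for AAV-GFP and orange for AAV-Notum, with the mean and SD (n = 6) beside each group in black. The groups overlapped for all 10 genes, and for Plin4 and G0s2 all 6 AAV-Notum mice lay under the mean of the controls.

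Pnpla2 (ENSMUSG00000025509, chromosome 7 of GRCm38, 141455198 to 141460743) encodes ATGL, which takes the first fatty acid from triglyceride. Its level was 2241 CPM in the lowest, 3241 at the median and 4649 in the highest AAV-GFP mouse, and 1849, 2448 and 3363 CPM in AAV-Notum mice. The lowest 3 AAV-Notum mice lay under all controls and 3 AAV-GFP mice lay over all treated mice, but the middle of the groups overlapped. With edgeR, the log2 fold change came to -0.33 (SE 0.23, 95% interval -0.84 to 0.17, adjusted p = 0.481), and the exact permutation p was 0.190. Without AAV-GFP-2012, the mouse of later RNA isolation, it was -0.20.

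Lipe (ENSMUSG00000003123, chromosome 7, 25379527 to 25398710) encodes hormone-sensitive lipase, the main diglyceride lipase of fat. It ranged from 1664 to 3177 CPM in AAV-GFP mice (median 2567) and from 1456 to 2639 CPM in AAV-Notum mice (median 2014.4). The AAV-Notum range lay a little lower and mostly inside that of the controls. With edgeR, the log2 fold change of Lipe came to -0.27 (SE 0.21, 95% interval -0.73 to 0.20, adjusted p = 0.518), and -0.18 without AAV-GFP-2014. Mgll (ENSMUSG00000033174, chromosome 6, 88724412 to 88828360), the lipase of the last step, ranged from 871 to 2235 CPM (median 1608) and from 946 to 1902 CPM (median 1319). No AAV-Notum mouse was below the lowest AAV-GFP mouse for Mgll. With edgeR, its log2 fold change came to -0.27 (SE 0.25, 95% interval -0.82 to 0.28, adjusted p = 0.566). It was -0.15 without AAV-GFP-2014, -0.16 without AAV-GFP-2011 and -0.09 in a fit that held RNA integrity as a covariate. The intervals of the 3 lipases reach from differences larger than that fitted for Plin4 below to small increases.

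Of the partners of ATGL, the inhibitor had the larger fitted difference. G0s2 (ENSMUSG00000009633, chromosome 1, 193272161 to 193273217) ranged from 106 to 298 CPM in AAV-GFP mice (median 209) and from 77.6 to 203 CPM in AAV-Notum mice (median 141). Each of the 6 AAV-Notum mice was under the mean of the controls and 4 AAV-GFP mice were over all treated mice, but AAV-GFP-2022 was lower than 5 of the 6 AAV-Notum mice. With edgeR, the log2 fold change of G0s2 came to -0.55 (SE 0.26, 95% interval -1.12 to 0.03, adjusted p = 0.366), with an exact permutation p of 0.0996. Abhd5 (ENSMUSG00000032540, chromosome 9, 122351608 to 122381524), the activator, ranged from 122 to 276 CPM (median 164) and from 117 to 234 CPM (median 156). The groups covered nearly the same range. With edgeR, its log2 fold change came to -0.08 (SE 0.23, 95% interval -0.57 to 0.41, adjusted p = 0.862), and leaving out each mouse in turn gave -0.19, without AAV-Notum-2042, to 0.09, without AAV-GFP-2012.

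Plin4 (ENSMUSG00000002831, chromosome 17, 56100591 to 56109803), a perilipin abundant in white fat cells and found on small droplets, had the largest fitted difference of the 10. Its level was 2285 CPM in the lowest, 3732 at the median and 4514 in the highest AAV-GFP mouse, and 1352, 2085 and 3358 CPM in AAV-Notum mice. The lowest 3 AAV-Notum mice were under all controls, and 4 AAV-GFP mice were over all treated mice. With edgeR, the log2 fold change came to -0.65 (SE 0.26, 95% interval -1.23 to -0.08, unadjusted p = 0.0294, adjusted p = 0.305), with an exact permutation p of 0.0346. The unadjusted p from edgeR passed 0.05 no more without any single one of AAV-GFP-2011, AAV-GFP-2012, AAV-GFP-2014, AAV-Notum-2031, AAV-Notum-2032 or AAV-Notum-2034. In those fits p ran from 0.0538 to 0.0644 and the log2 fold change from -0.61 to -0.54. Nor did it pass in a fit that held RNA integrity as a covariate (log2 fold change -0.59, unadjusted p = 0.0630 from edgeR). Exons of Hdgfl2 lie opposite those of Plin4 and the counting is not known to use strand, but Hdgfl2 had 7513 reads over all mice against 598355 of Plin4.

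Plin1 (ENSMUSG00000030546, chromosome 7, 79720218 to 79732903), the coat protein that gates lipolysis, ranged from 1436 to 3334 CPM in AAV-GFP mice (median 2497) and from 1423 to 2443 CPM in AAV-Notum mice (median 1789). The lowest mice of the groups were alike, and the 3 highest were all AAV-GFP mice. With edgeR, the log2 fold change of Plin1 came to -0.38 (SE 0.23, 95% interval -0.88 to 0.12, adjusted p = 0.438). Plin2 (ENSMUSG00000028494, chromosome 4, 86648386 to 86670060), the perilipin found on droplets of most cell types, ranged from 240 to 335 CPM (median 303) and from 160 to 375 CPM (median 284). Both the lowest and the highest Plin2 level were in AAV-Notum mice. With edgeR, its log2 fold change came to -0.09 (SE 0.17, 95% interval -0.47 to 0.29, adjusted p = 0.787), and leaving out each mouse in turn gave -0.19, without AAV-Notum-2041, to 0.03, without AAV-Notum-2032.

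Cidec (ENSMUSG00000030278, chromosome 6, 113424634 to 113435760), which encodes the droplet fusion protein of white fat, ranged from 2143 to 3618 CPM in AAV-GFP mice (median 2998) and from 1544 to 3723 CPM in AAV-Notum mice (median 2175). The 3 lowest mice and the highest mouse were all AAV-Notum treated. With edgeR, its log2 fold change came to -0.31 (SE 0.24, 95% interval -0.83 to 0.22, adjusted p = 0.515), and -0.49 without AAV-Notum-2042 (unadjusted p = 0.0473). Fitm2 (ENSMUSG00000048486, chromosome 2, 163466379 to 163472629), needed for droplet formation, ranged from 247 to 419 CPM (median 317) and from 170 to 365 CPM (median 229). Here too the 3 lowest mice were AAV-Notum treated, and the 2 highest were AAV-GFP treated. With edgeR, the log2 fold change of Fitm2 came to -0.42 (SE 0.21, 95% interval -0.88 to 0.04, adjusted p = 0.380), with an exact permutation p of 0.0909.

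The low and high levels recurred in the same mice. AAV-Notum-2032 was among the 3 lowest mice for all 10 genes and AAV-Notum-2031 for 9. AAV-GFP-2012 and AAV-GFP-2014 were among the 3 highest for 8 genes each and AAV-GFP-2011 for 7. In AAV-Notum-2042 the genes were high, among the top 3 for 4 of them, and in AAV-GFP-2022 they were low, among the bottom 3 for 3. Thus each group held mice whose levels lay among those of the other group.

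The members moved together from mouse to mouse. Pearson's r of log2 CPM over the 12 mice was above 0 in all 45 pairs of members, with a median of 0.85, and 41 pairs passed an adjusted p of 0.05 (100000 permutations, Benjamini-Hochberg adjustment over the 45 pairs; 38 by Spearman's rho). All levels of a mouse come from a single library and share its total. The share among pairs of all tested genes was not computed, so nothing particular to these genes is read from the count of pairs. Cidec and Fitm2 had the highest r, 0.97 (permutation p = 1e-05, the smallest that 100000 permutations can give) with Spearman's rho of 0.97 (permutation p = 1e-05), and r was 0.94 without the 2 mice farthest from the median of Cidec. G0s2 and Plin2 had the lowest r, 0.42 (permutation p = 0.181) with rho of 0.39 (permutation p = 0.210), and r was 0.36 without the 2 farthest mice. Plin2 stood aside: its 9 pairs had r from 0.42 to 0.67, with a median of 0.61, while the 36 pairs without Plin2 had a median of 0.89. With the group means removed, the median r over the 45 pairs was 0.87, and 40 pairs passed the adjusted p, so the pattern was also present within the groups.

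Transcripts of fat cells, endothelial cells and skeletal muscle moved with these genes from mouse to mouse, and those of lymphoid cells moved the opposite way. The adipocyte score (mean log2 CPM of 12 markers, none of them a member) was 10.46 ± 0.47 in AAV-GFP and 10.24 ± 0.38 in AAV-Notum mice (SD, n = 6, exact permutation p = 0.387). Its r with the single members over the 12 mice ran from 0.62 for Plin2 to 0.98 for Mgll, with a median of 0.89, and from 0.60 to 0.98 with the group means removed. For Mgll, r was 0.98 (permutation p = 1e-05), rho was 0.98 (permutation p = 1e-05), and r was 0.97 without the 2 farthest mice. The endothelial score (7 markers, such as Pecam1 and Tek) was 6.06 ± 0.30 and 5.81 ± 0.20 (SD, n = 6, exact permutation p = 0.119), and 3 of its 7 genes had an unadjusted p under 0.05 from edgeR and were lower, with 0 higher (9.54% and 4.64% of all genes), with a median log2 fold change of -0.32. Its r with the members ran from 0.63 for Plin2 to 0.93 for Fitm2, with a median of 0.88, and from 0.62 to 0.91 with the group means removed. For Fitm2, r was 0.93 (permutation p = 2e-05, adjusted p = 0.000343 over the 80 correlations of 8 scores with the 10 members), rho was 0.98 (permutation p = 1e-05), and r was 0.93 without the 2 farthest mice. Of 8 fibroblast and progenitor markers, 4 were lower and 0 higher at that p, against the same 9.54% and 4.64% of all genes. In all, 6 of the 8 had a lower estimate, with a median log2 fold change of -0.36. As a score they were at 7.64 ± 0.32 and 7.51 ± 0.11 (SD, n = 6, exact permutation p = 0.407). The score of those markers had r with the members from -0.17 to 0.25, and from -0.31 to 0.51 without the 2 farthest mice. The skeletal muscle score (8 markers, such as Acta1 and Ckm) was 3.28 ± 2.29 and 2.94 ± 3.44 (SD, n = 6, exact permutation p = 0.835), and 0 of its 8 genes passed that p. Its r with the members ran from 0.52 for Plin2 to 0.80 for Abhd5, and from 0.52 to 0.85 with the group means removed. For Abhd5, r was 0.80 (permutation p = 0.00201, adjusted p = 0.00766 over the 80), rho was 0.80 (permutation p = 0.00286), and r was 0.68 without the 2 farthest mice. For the macrophage score r ran from -0.55 to -0.16, but from -0.15 to 0.21 without the 2 farthest mice, AAV-GFP-2014 and AAV-Notum-2042. The hepatocyte score had r from -0.26 to 0.07 (-0.45 to -0.05 without the 2 farthest mice) and the brown or beige adipocyte score from -0.27 to 0.46 (-0.02 to 0.59). The hepatocyte score was 3.76 ± 3.29 and 1.33 ± 2.59 (SD, n = 6, exact permutation p = 0.184). All 8 hepatocyte markers had a lower estimate in AAV-Notum mice (median log2 fold change -2.80), 2 of them at an unadjusted p under 0.05 in edgeR (9.54% of all genes). Of the 15 lymphoid markers, all had a higher estimate in AAV-Notum mice and 0 passed an unadjusted p of 0.05 in edgeR. The lymphoid score was 3.91 ± 3.24 and 6.55 ± 0.75 (SD, n = 6, exact permutation p = 0.0887). Of the 15 lymphoid markers, all had a higher estimate in AAV-Notum mice and 0 passed an unadjusted p of 0.05 in edgeR. Its r with the members ran from -0.87 to -0.49 over the 12 mice, with a median of -0.74. With the group means removed it ran from -0.85 to -0.46, with a median of -0.65. Since AAV-GFP-2011 and AAV-GFP-2014 stood apart in the lymphoid score, r is also given over the other 10 mice. There it ran from -0.91 for Pnpla2 to -0.51 for Plin2, with a median of -0.85. The 3 mice lowest in the lymphoid score were AAV-GFP treated and were the 3 highest in the mean of the 10 genes.

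**Figure D2:**
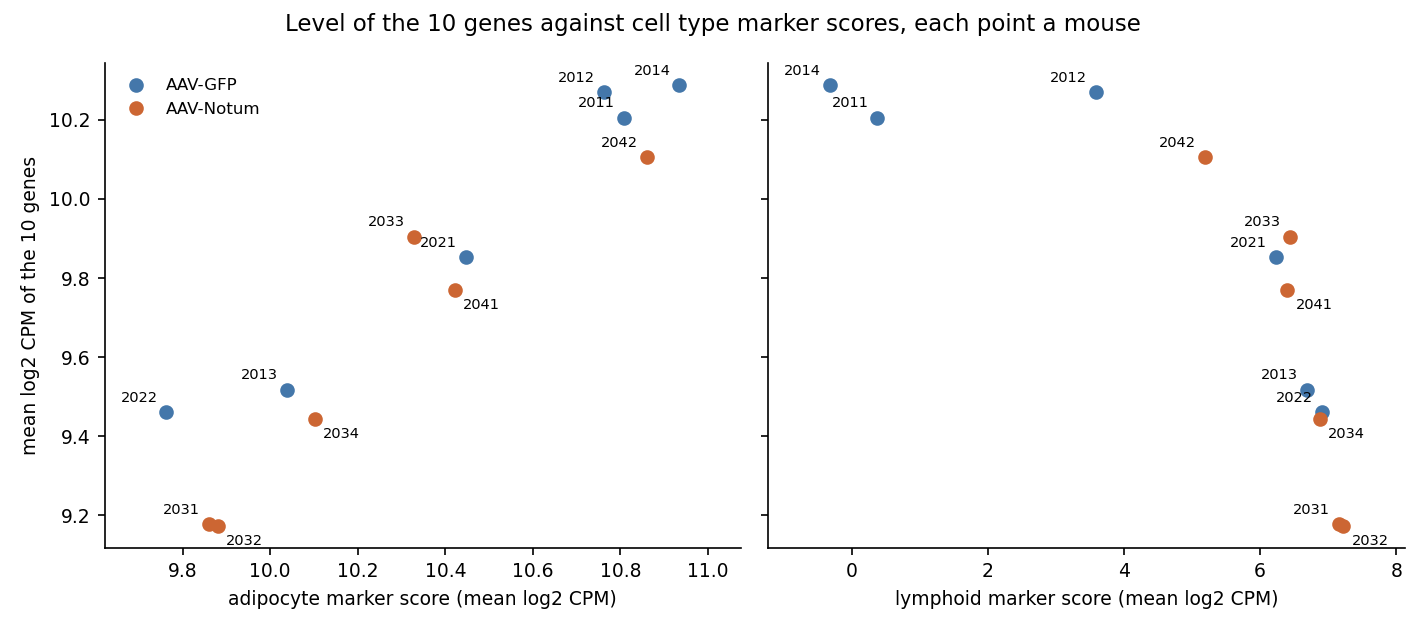
Mean log2 CPM of the 10 genes (vertical axis) against the adipocyte marker score (left) and the lymphoid marker score (right), both mean log2 CPM, each point a mouse labelled by its number, blue for AAV-GFP and orange for AAV-Notum. The genes were high where the adipocyte score was high and low where the lymphoid score was high, and AAV-GFP-2014 and AAV-GFP-2011 lie far left on the lymphoid axis at -0.32 and 0.37.

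With the adipocyte or the lymphoid score in the model, the fitted differences were smaller in size for 9 of the 10 genes. The exception was Abhd5, at -0.08 without a score, 0.08 with the adipocyte score and 0.18 with the lymphoid score. With the adipocyte score as a covariate, the median log2 fold change of the 10 genes was -0.14, and 8 of 10 were below 0. Plin4 was then -0.47 (unadjusted p = 0.00452, adjusted p = 0.0906 from edgeR) and Fitm2 was -0.27 (unadjusted p = 0.0150, adjusted p = 0.146 from edgeR). These 2 of 10 were lower at an unadjusted p under 0.05 in that fit, where 9.67% of all genes were, and 0 passed an adjusted p of 0.05, where 1.67% of all genes did. With the lymphoid score as a covariate, the median was 0.01 and 5 of 10 were below 0. Plin4 was then -0.33 (unadjusted p = 0.205 from edgeR) and Pnpla2 was -0.02, while Lipe, Mgll, Abhd5, Plin1 and Plin2 were above 0, from 0.03 to 0.21. In that fit 0 of 10 passed an unadjusted p of 0.05, where 4.88% of all genes were lower and 4.47% higher, and 0 passed after adjustment, where 0.0257% of all genes did. Without AAV-GFP-2011 and AAV-GFP-2014, Plin4 was -0.52 (unadjusted p = 0.111 from edgeR), the median was -0.17, Mgll was 0.03, Lipe -0.10, Plin1 -0.14, Cidec -0.19 and G0s2 -0.26. The part of fat cell, endothelial, skeletal muscle and lymphoid RNA in these differences was not tested.

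**Figure D3:**
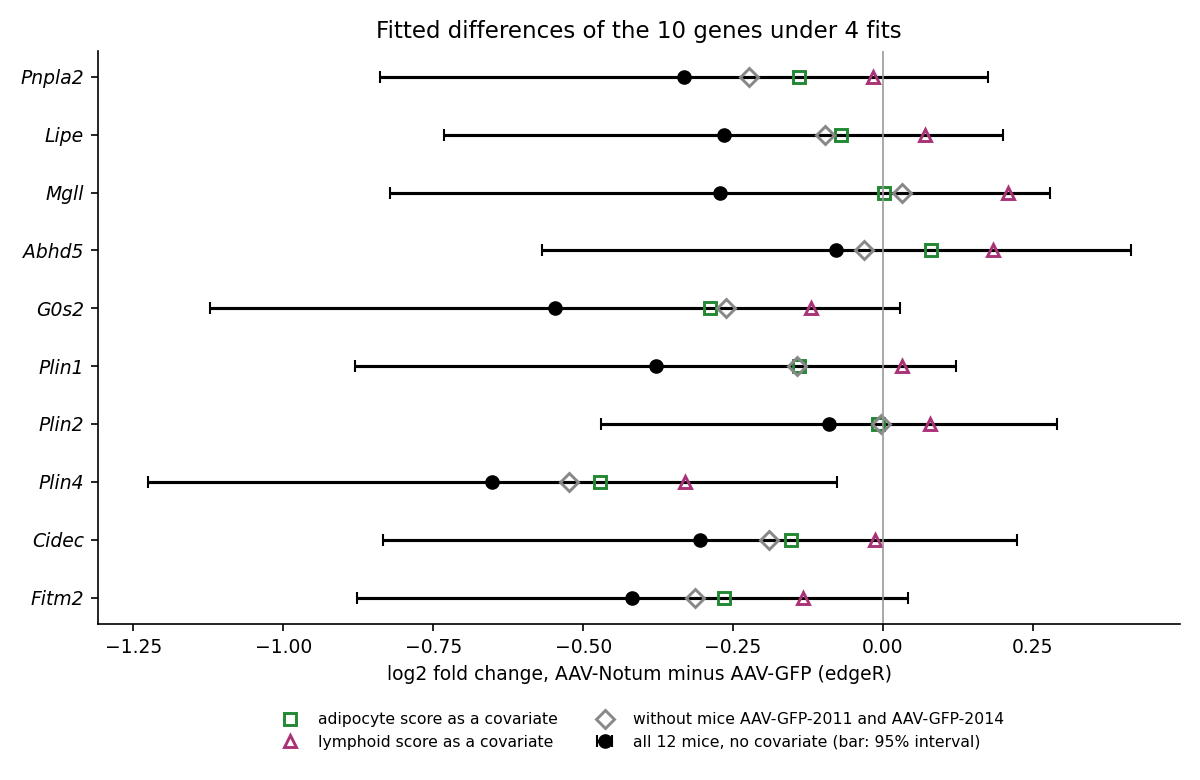
Log2 fold change of each gene, AAV-Notum minus AAV-GFP, from edgeR: black points with 95% intervals are the fit of all 12 mice without a covariate, open squares have the adipocyte score and open triangles the lymphoid score as a covariate, and open diamonds leave out AAV-GFP-2011 and AAV-GFP-2014. Only the interval of Plin4 lies wholly below 0, and Plin4 is the lowest of the 10 in each of the 4 fits.

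Ratios between members in the same mouse do not depend on how many reads the library had. The lipase was compared with its activator and its inhibitor, the later lipases with the ones before them, and the droplet proteins and Abhd5 with Plin1, which gave 9 ratios of CPM. The ratio of Pnpla2 to Abhd5 was 16.0 to 20.03 in AAV-GFP mice (median 18.9) and 13.6 to 17.9 in AAV-Notum mice (median 15.5). It was under the control mean in 6 of 6 AAV-Notum mice and under all controls in 4. The log2 difference was -0.24 (exact permutation p = 0.0152, adjusted p = 0.0877 over the 9 ratios), and -0.19 without AAV-GFP-2011 and AAV-GFP-2014 (exact permutation p = 0.0667). The ratio of Plin4 to Plin1 was 1.20 to 1.81 in AAV-GFP mice (median 1.49) and 0.950 to 1.46 in AAV-Notum mice (median 1.18). It too was under the control mean in 6 of 6 AAV-Notum mice and under all controls in 4. Its log2 difference was -0.34 (exact permutation p = 0.0195, adjusted p = 0.0877 over the 9 ratios), and -0.43 without AAV-GFP-2011 and AAV-GFP-2014 (exact permutation p = 0.0143). Without AAV-GFP-2012 or without AAV-GFP-2022 the exact permutation p of Plin4 to Plin1 was 0.0519.

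None of the 9 ratios passed an adjusted p of 0.05, and 2 passed before adjustment. Pnpla2 to G0s2, lipase to inhibitor, was 12.9 to 22.3 in AAV-GFP mice (median 13.5) and 15.02 to 23.8 in AAV-Notum mice (median 17.6). AAV-GFP-2012 and AAV-GFP-2022 were at 22.3 and 21.9, among the highest AAV-Notum mice, and the other 4 AAV-GFP mice were under all treated mice (log2 difference 0.21, exact permutation p = 0.266). Abhd5 to Plin1 was over the control mean in 6 of 6 AAV-Notum mice (log2 difference 0.27, exact permutation p = 0.106). Cidec to Plin1 had nearly the same mean in both groups (log2 difference -0.004, exact permutation p = 0.974). For Lipe to Pnpla2 and Mgll to Lipe, the order of the lipases, the log2 differences were 0.07 and 0.02 (exact permutation p = 0.424 and 0.810), and for Plin2 and Fitm2 to Plin1 they were 0.22 and -0.10 (exact permutation p = 0.277 and 0.390). Single mice moved several of these differences. Leaving out each mouse in turn gave 0.13 (without AAV-Notum-2031) to 0.31 for Pnpla2 to G0s2 and 0.02 (without AAV-GFP-2012) to 0.10 for Lipe to Pnpla2. It gave 0.14 (without AAV-GFP-2014) to 0.33 (without AAV-GFP-2022) for Plin2 to Plin1 and -0.15 (without AAV-GFP-2014) to -0.04 (without AAV-GFP-2022) for Fitm2 to Plin1. Abhd5 to Plin1 ran from 0.20 to 0.35, with an exact permutation p of 0.0433 before adjustment without AAV-GFP-2012 or without AAV-GFP-2022. Without both AAV-GFP-2011 and AAV-GFP-2014, Pnpla2 to G0s2 was 0.07, Abhd5 to Plin1 0.12, Plin2 to Plin1 0.08 and Fitm2 to Plin1 -0.21.

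**Figure D4:**
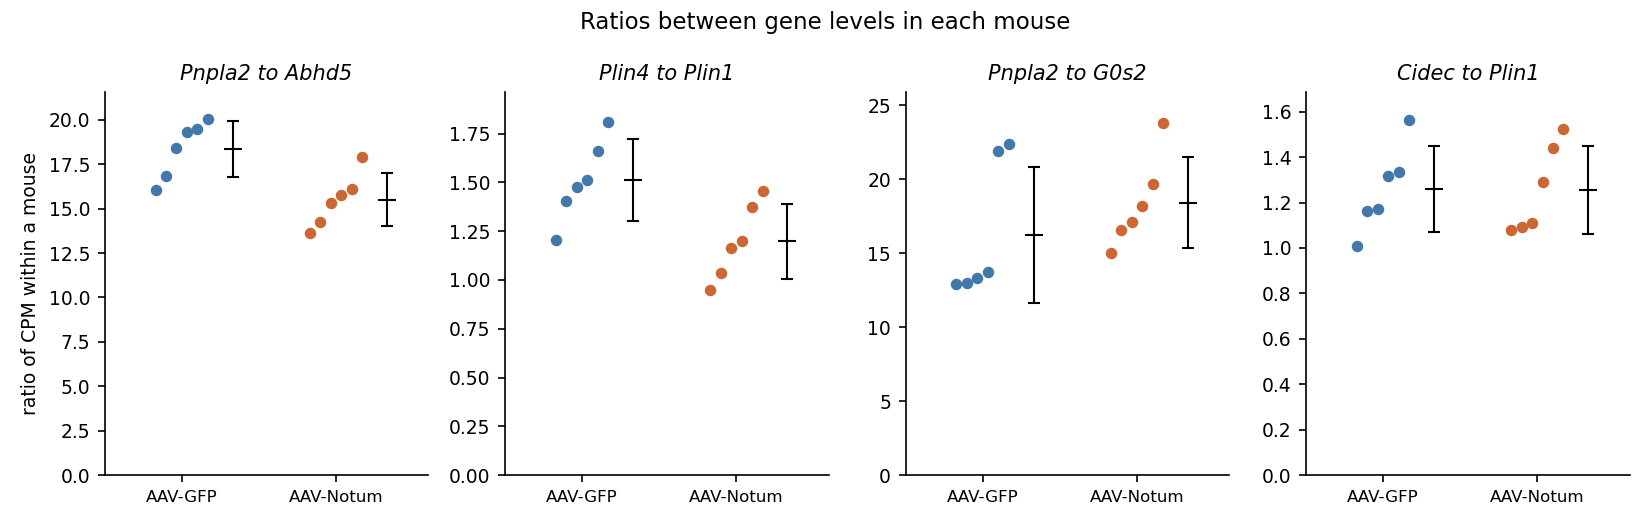
Ratio of CPM between 2 genes in the same mouse (linear axes from 0), each point a mouse, blue for AAV-GFP and orange for AAV-Notum, with the mean and SD (n = 6) in black. For Pnpla2 to Abhd5 and Plin4 to Plin1, 4 AAV-Notum mice lie below all AAV-GFP mice, while for Cidec to Plin1 the groups coincide.

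Other genes of the pathway were taken from 7 lists, and 0 genes in any of them passed an adjusted p of 0.05 in edgeR. The counts at an unadjusted p under 0.05 stand against 9.54% of all tested genes lower and 4.64% higher, and nothing particular to a list is read from them. Among 8 other lipases and lipase regulators, 2 were lower and 0 higher at that p. Hilpda, which encodes another inhibitor of ATGL, ranged from 8.38 to 12.2 CPM in AAV-GFP mice and from 5.97 to 8.37 CPM in AAV-Notum mice. The groups of Hilpda did not overlap, though the nearest mice were almost level, and the gene had 97 to 217 reads per mouse (exact permutation p = 0.00216, the smallest that 6 mice against 6 allow, and log2 fold change -0.32 with SE 0.12 and adjusted p = 0.281 from edgeR). Ldah, a droplet hydrolase, had a log2 fold change of -0.35 (adjusted p = 0.291 from edgeR).

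Of 12 genes of the cAMP and cGMP signals that drive lipolysis, which include receptors and subunits of protein kinase A, 2 were lower at an unadjusted p under 0.05 (9.54% of all genes) and 0 higher (4.64%). They were Npr1, the natriuretic peptide receptor (85.0 ± 18.2 and 61.8 ± 10.2 CPM, SD, n = 6, log2 fold change -0.46, adjusted p = 0.212 from edgeR), and Adrb1, a β-adrenergic receptor (3.39 to 9.71 and 2.38 to 4.98 CPM, log2 fold change -0.78, adjusted p = 0.224 from edgeR). Of 12 antilipolytic genes, 2 were lower and 0 higher, against the same shares of all genes. Npr3, which clears natriuretic peptides, had 80.7 to 802 CPM in AAV-GFP mice and 97.9 to 163 CPM in AAV-Notum mice (log2 fold change -1.75, adjusted p = 0.169 from edgeR). The controls thus spread far more widely in Npr3 than the treated mice. Insr, the insulin receptor, had a log2 fold change of -0.47 (adjusted p = 0.270 from edgeR).

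Among 17 other droplet proteins, 14 were tested, 4 of them lower and 1 higher at an unadjusted p under 0.05, where 9.54% of all genes were lower and 4.64% higher. The lower ones were Hilpda, Ldah, Cavin1 and Cav1, the last 2 being the coat proteins of caveolae, with log2 fold changes of -0.49 and -0.67 (adjusted p = 0.305 and 0.346 from edgeR). Cidea, the relative of Cidec that is typical of brown and beige fat cells, was the higher one, with 18.7 to 57.6 CPM in AAV-GFP mice and 35.9 to 153 CPM in AAV-Notum mice (log2 fold change 1.09, adjusted p = 0.242 from edgeR). Cidea and Cidec therefore had fitted differences of opposite sign. In the 9 genes of triglyceride synthesis, 0 passed an unadjusted p of 0.05 in either direction, and the smallest p was that of Agpat2, an acyltransferase (log2 fold change 0.51, unadjusted p = 0.0822 from edgeR).

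Of 6 genes that handle the products of lipolysis, Aqp7, the glycerol channel of fat cells, was lower with 292 ± 103 and 181 ± 43.0 CPM (SD, n = 6, log2 fold change -0.68, unadjusted p = 0.0145 and adjusted p = 0.243 from edgeR). Fabp5, a fatty acid binding protein, was higher with 46.1 ± 6.28 and 72.9 ± 22.4 CPM (SD, n = 6, log2 fold change 0.66, unadjusted p = 0.00679 and adjusted p = 0.201 from edgeR). Of 8 regulators of lipase genes, Snai1, a Snail factor, had a log2 fold change of -0.44 at 35 to 84 reads per mouse (adjusted p = 0.310 from edgeR), and Egr1, an immediate early factor, had 0.55 (adjusted p = 0.280 from edgeR).

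**Figure D5:**
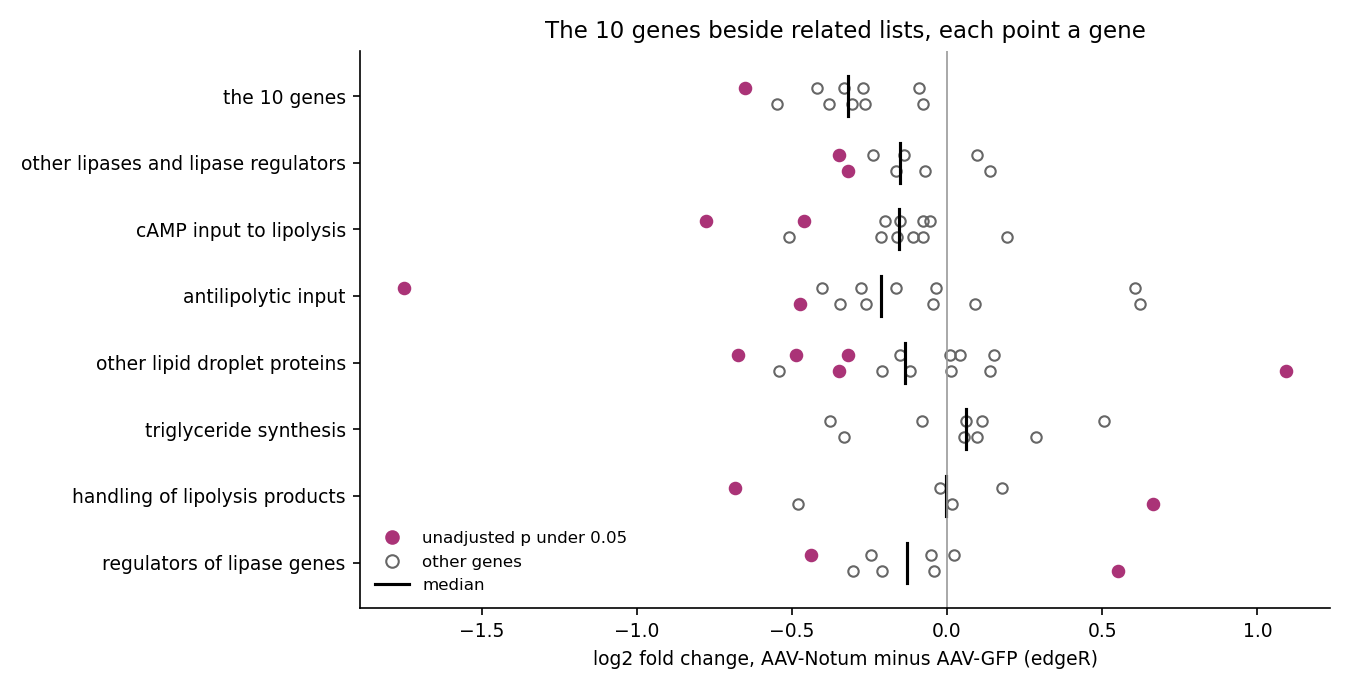
Log2 fold change of the 10 genes (top row) and of each gene in the 7 related lists, AAV-Notum minus AAV-GFP, from edgeR, with filled points for an unadjusted p under 0.05, open points for the rest and a black bar at each median. The median of the 10 genes, -0.32, is the lowest of the rows, Npr3 lies farthest left at -1.75 and Cidea farthest right at 1.09.

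Outside the 10 genes, the levels most like that of Pnpla2 over the 12 mice were those of Nrp1 (r = 0.98), Lgals12 (r = 0.98) and Smarcc2 (r = 0.97), chosen as the highest r among all genes tested and given without a test. Lgals12 encodes a galectin of fat cell droplets, Nrp1 a co-receptor of semaphorins and VEGF, and Smarcc2 a chromatin remodelling subunit. Their log2 fold changes, -0.34, -0.42 and -0.23 in the order Nrp1, Lgals12, Smarcc2, were near the -0.33 of Pnpla2, and none passed an adjusted p of 0.05 (0.401, 0.410 and 0.430 from edgeR).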

How the data were processed

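The authors isolated iWAT RNA with a Qiagen miRNA kit, sequenced TruSeq libraries as single-end reads and, per the labels, used FastQC, STAR 2.3.1 (mm10) and DESeq2. The counting program, annotation and strand setting are not given in the sources used here. They deposited raw read counts per gene, used here, and log2 values (reads divided by a size factor, plus 1). Undoing the latter gave whole reads (within 0.05) for 100% of values, with 20.0% fewer for Lipe and 18.2% fewer for Abhd5 than in the raw table. In R 4.3.3, edgeR 4.0.16 was run with filterByExpr (minimum count 10, minimum total 15), TMM and glmQLFTest, two-sided, threshold 0.05. SE are log2 fold changes over the root of F. Log2 CPM carry a prior count of 2. Exact permutation tests on mean log2 CPM used all 924 assignments. RPKM use exon bases of GENCODE vM21. Alternatives used DESeq2 1.42.0, limma 3.58.1, RLE factors, other filters, covariates, the recovered reads and fewer mice. Fits were tested on simulated data. The members, lists and tests were chosen with earlier results of these data known. Genes named beside the members are Notum, the 3 with the highest r with Pnpla2, and in each list up to 4 a direction at an unadjusted p under 0.05, or else the gene of smallest p. Ldaf1 was not matched.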

Additional observations from a re-analysis of the deposited data

Results flagged for a closer look

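In AAV-GFP-2014 the macrophage score (mean log2 CPM of 8 markers, such as Adgre1 and Cd68) was 4.70, while the other 5 AAV-GFP mice lay between 5.48 and 5.83. The gap to the nearest of them was 0.689 of the group's range, above Dixon's 95% value for 6 mice. This was 1 of 54 groups of values examined, where chance gives about 1 in 20, or 2.7. The 10 members had no such mouse in either group. In the same mouse the lymphoid score was the lowest of the 12, at -0.32, and Mgll, Lipe, G0s2 and Plin1 were at their highest. What sets this mouse apart was not tested.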

How the results depend on the processing

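The members were refitted under 25 alternatives, where leaving out the mouse of later RNA isolation is the same fit as leaving out AAV-GFP-2012, and the ratios under 14 (the recovered reads and fewer mice). Pnpla2, G0s2, Plin4, Cidec and Fitm2 stayed below 0 in all 25. No member in the 25 and no ratio in the 14 passed an adjusted p of 0.05, and the cause of the changes that follow was not tested. With the lymphoid score as a covariate the log2 fold change was 0.070 for Lipe, 0.21 for Mgll, 0.18 for Abhd5, 0.032 for Plin1 and 0.078 for Plin2, with the adipocyte score it was 0.0019 for Mgll and 0.080 for Abhd5, without the mouse of later RNA isolation 0.089 for Abhd5, and without both AAV-GFP-2014 and AAV-GFP-2011 it was 0.032 for Mgll. Leaving out each mouse in turn gave -0.19 to 0.089 for Abhd5, -0.19 to 0.030 for Plin2, -0.040 to 0.083 for the log2 ratio of Mgll to Lipe and -0.065 to 0.061 for that of Cidec to Plin1. The count of members lower at an unadjusted p under 0.05 was 1 of 10, where 9.54% of all genes tested were lower. It was 2 with DESeq2 (5.87% of a larger set, 31900 genes) and with the adipocyte score (9.67%). It was 0 with the RNA integrity number (5.95%) and with the lymphoid score (4.88%). It was also 0 without the mouse of later RNA isolation (7.11%) and without both AAV-GFP-2014 and AAV-GFP-2011 (4.95%). Leaving out each mouse gave 0 to 4 (6.67% to 13.6%). Of all genes, 8 passed an adjusted p of 0.05 with edgeR, 436 with DESeq2, 14 with RLE size factors, 5 with genes of at least 1 count, 15 with genes of at least 10 counts in every mouse, 4 with the lymphoid score, 260 with the adipocyte score, 4 with the deposited normalized values in limma, 5 without the mouse of later RNA isolation, 1 without both AAV-GFP-2014 and AAV-GFP-2011, and 1 to 158 leaving out each mouse, 158 being without AAV-GFP-2022. No paired analysis was possible because the groups share no replicate numbers. With 6 mice a group the 95% intervals of the members span 0.76 to 1.15 on the log2 scale, and the reads per member and mouse were 1528 or more.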
